A study of Mus musculus with 6 samples.

Results

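Ribosome biogenesis factors are the proteins that transcribe, modify, cut and assemble ribosomal RNA without staying in the finished ribosome. A set of 34 such genes was followed here, each through the probe set that the platform annotation gives to exactly 1 gene and that had the highest mean over the 6 arrays, out of 19938 genes measured in the same way. All 34 were found. The arrays came from 3 samples of cultured and 3 samples of freshly sorted mouse muscle satellite cells, the resident stem cells of skeletal muscle. All cells were from 2-month-old C57BL/6J mice and were sorted from hind limb, abdominal and triceps muscle as positive for beta-1 integrin and CXCR4 and negative for CD11b, CD31, CD45, Sca1 and Ter119. For the cultured samples the sorted cells then grew for 5 days on collagen and laminin in F10 medium containing 20% horse serum, with 5 ng/ml of basic fibroblast growth factor (bFGF) added daily. The muscle was resting, and the fresh samples were taken without culture. Although 3 mice are named for the study, nothing links a given array to 1 of them. The p-values therefore reflect only how much these samples vary, and part of that variation may be technical.

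In the nucleolus, RNA polymerase I copies the ribosomal DNA into 1 long precursor. Box C/D particles, built on fibrillarin, guide 2'-O-methylation of that precursor, and box H/ACA particles, built on dyskerin, guide the conversion of uridine to pseudouridine. The small subunit processome, a large assembly around the U3 RNA, folds and cuts the part that becomes the small subunit, and separate factors carry the pre-60S and late 40S particles towards the cytoplasm. A resting stem cell that returns to growth is known to enlarge its nucleolus, and the transcription factor Myc is a known activator of many of these genes. Arrays of pooled RNA cannot tell fewer cells of a type from less RNA per cell.

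Values are log2 expression as the authors deposited it, and a log2 fold change is the cultured mean minus the fresh mean. With limma and Benjamini-Hochberg adjustment over all genes, 1 of the 34 members passed an adjusted p of 0.05. This was the U3 protein gene Rrp9, which fell, while no member rose. Among all 19938 genes, 3.37% were called lower and 0.953% higher in cultured cells, 4.32% in either direction, so the share of called members is near that of all genes. At an unadjusted p below 0.05 there were 7 members lower and 2 higher, beside 9.06% of all genes lower and 8.58% higher. The median log2 fold change of the members was -0.19, against 0.04 for all genes. This sign depends on the scale: the median of the members was -0.25 after median centring, but 0.14 after a further quantile normalization and 0.04 with cyclic loess. The 3 cultured values lay wholly below the 3 fresh values for Nop58, Rrp9 and Gnl3 and wholly above them for Polr1b, Utp20 and Rrp12. The other 28 members overlapped. Among all genes, 10.3% lay wholly below and 12.9% wholly above.

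**Figure D1:**
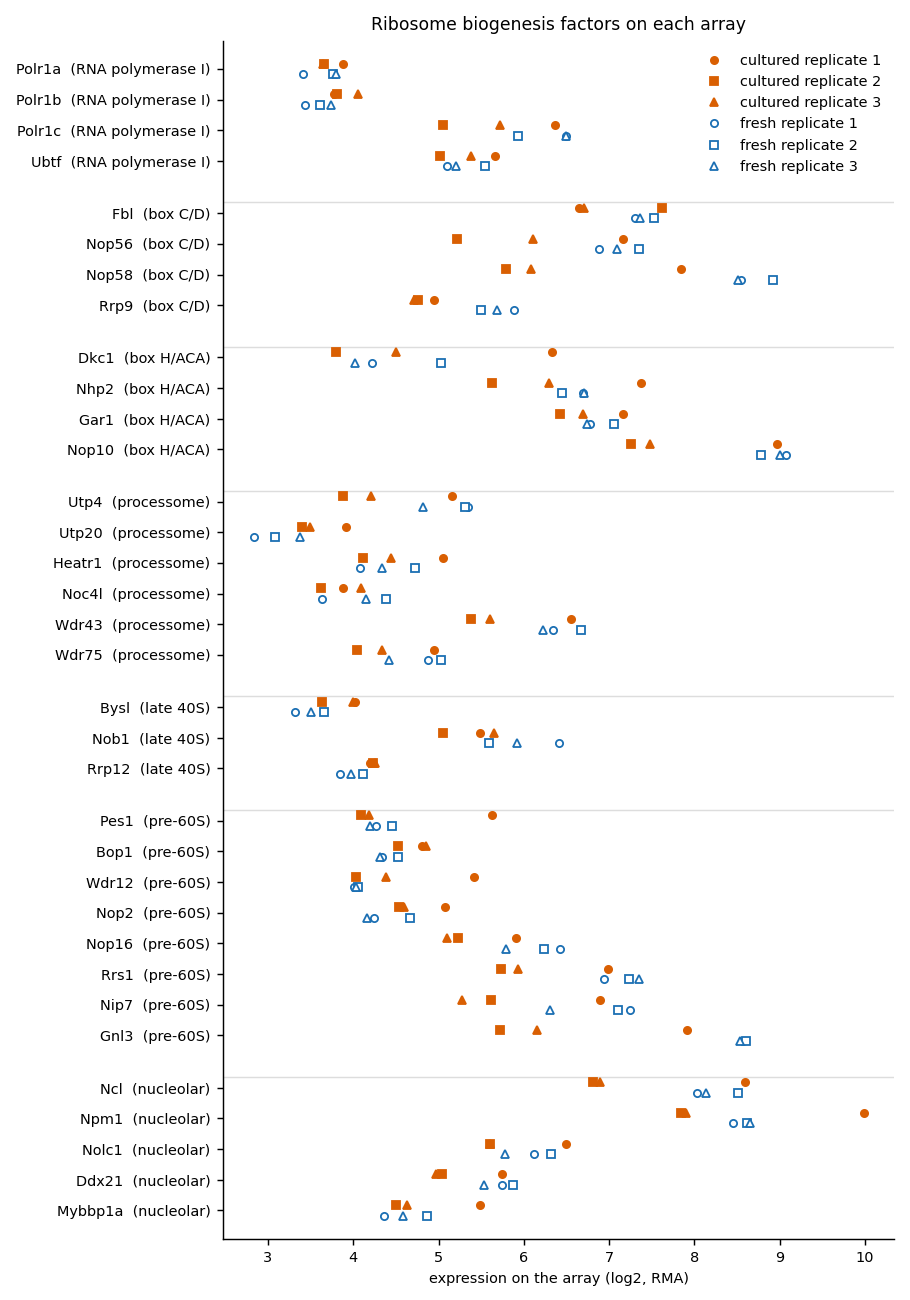
Expression of the 34 members on each array (log2, horizontal axis), by role. Filled orange symbols are the cultured arrays and open blue symbols the fresh arrays, with 1 symbol shape per replicate number. For 28 members cultured replicate 1 is the highest of the cultured arrays.

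The members varied more between the cultured arrays than between the fresh arrays. The SD over the 3 cultured arrays was larger than that over the 3 fresh arrays for 29 of 34 members (85.3%), against 53.5% of all genes. The median SD of the members was 0.52 for cultured and 0.23 for fresh arrays, while the median over all genes was 0.19 for cultured and 0.18 for fresh arrays. Cultured replicate 1 stood apart from the other cultured arrays. It held the highest cultured value for 28 of 34 members (82.4%), against 41.9% of all genes, and lay above all fresh arrays for 18 members (52.9%), against 36.8% of all genes. Cultured replicates 2 and 3 lay below all fresh arrays for 23 and 20 members (67.6% and 58.8%), against 30.4% and 26.4% of all genes. For 6 members, Nhp2, Gar1, Pes1, Ncl, Npm1 and Nolc1, cultured replicate 1 was above every fresh array and both other cultured arrays were below every fresh array. This was 17.6% of the members, against 2.70% of all genes. The share was alike, at 17.9%, in 140 further ribosome biogenesis genes. All 34 members were above background on the cultured arrays, against 10633 of all 19938 genes, so the 2 sets differ in brightness. All genes with a mean of 6 to 7 had medians of 0.11, -0.91 and -0.58 from the fresh mean on cultured replicates 1, 2 and 3. At a mean of 4 to 5 these were 0.17, -0.10 and 0.065. The shares above were not compared with those of genes of like brightness.

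The count of called members depended on single arrays. Without cultured replicate 1, 13 of 34 members were lower and none higher in cultured cells, while 6.41% of all genes were called lower and 1.20% higher. Without cultured replicate 2 there were 2 members lower, Fbl and Rrp9, beside 2.64% of all genes lower and 1.40% higher. Without cultured replicate 3 no member passed, beside 1.91% of all genes lower and 0.341% higher. Bright values as a whole were dimmer on cultured replicates 2 and 3. For the 236 genes averaging over 8, cultured replicates 1, 2 and 3 differed from the fresh mean by a median of 0.03, -1.74 and -1.18. The part of this in the members' values was not tested. Direction calls over all genes depended on the scale too, with 22.1% of calls upward as deposited and 43.8% after quantile normalization. After quantile normalization 2 members were lower (4.50% of all genes) and 2 higher (3.50%), with cyclic loess 3 lower (5.10%) and 1 higher (2.50%), and with array weights 4 lower (5.80%) and none higher (2.93%).

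**Figure D2:**
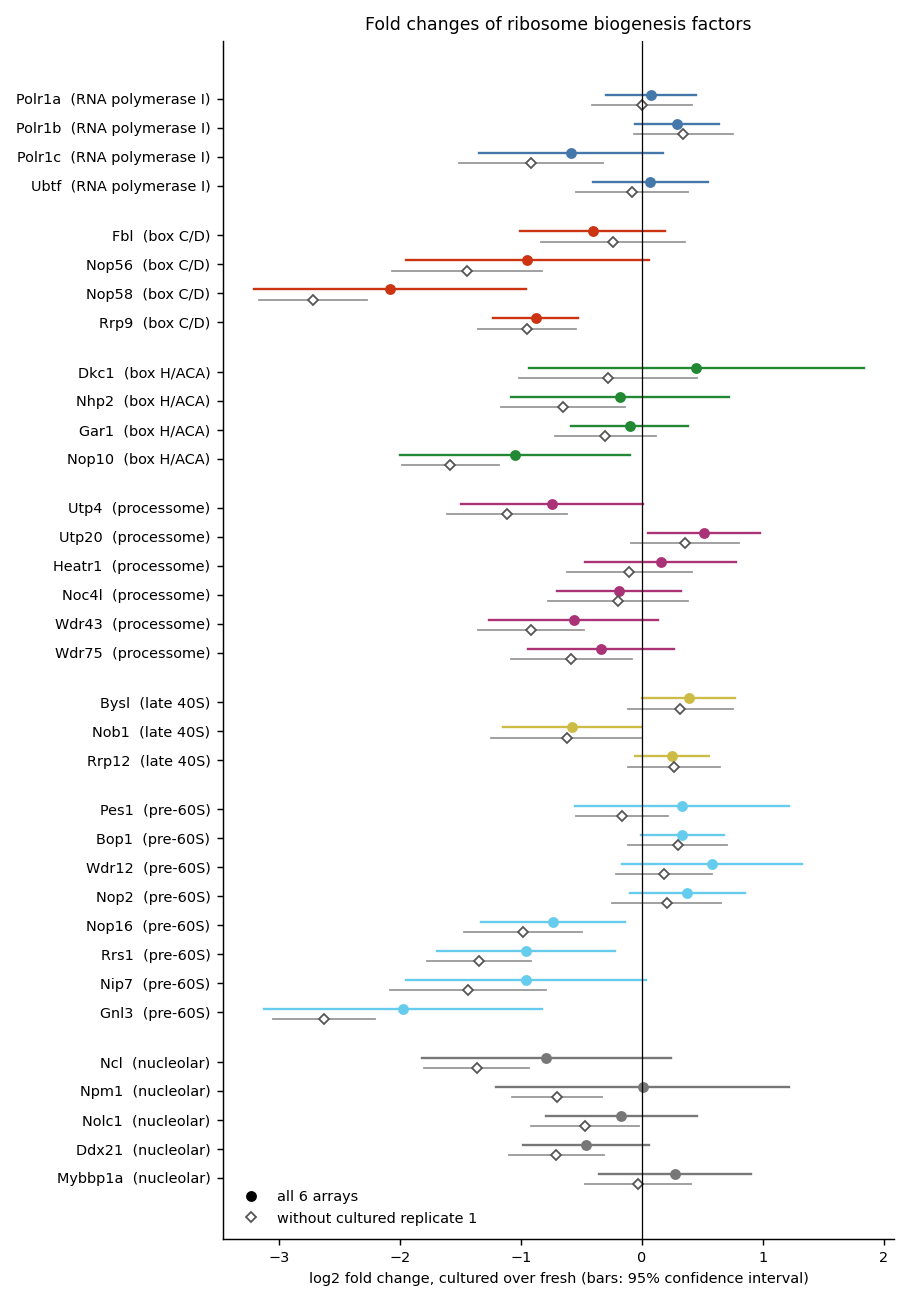
Log2 fold change of each member, cultured over fresh (horizontal axis), with its 95% confidence interval from limma. Coloured circles are from all 6 arrays and open diamonds leave out cultured replicate 1; Nop58 and Gnl3 lie furthest to the left in both.

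RNA polymerase I genes showed no call in either direction, and 3 of the 4 intervals lay within a log2 change of 1 either way. Polr1a, the largest catalytic subunit, was at 3.88, 3.65 and 3.65 across the cultured arrays, against 3.41, 3.76 and 3.80 across the fresh arrays. Its log2 fold change was 0.08 ± 0.16 (SE), with a 95% confidence interval of -0.29 to 0.44. Ubtf, which binds the ribosomal DNA and recruits the polymerase, was at 5.66, 5.02 and 5.38 across the cultured arrays, against 5.10, 5.54 and 5.20 across the fresh arrays. Its fold change was 0.07 ± 0.20, with an interval of -0.40 to 0.54 and overlapping groups. Polr1b, the second-largest subunit, was at 3.77, 3.81 and 4.06 across the cultured arrays, against 3.43, 3.61 and 3.74 across the fresh arrays. The 3 cultured values were above the 3 fresh ones by a small margin, and the log2 fold change of 0.29 ± 0.15 had an adjusted p of 0.381. Polr1c, a subunit shared with RNA polymerase III, was at 6.37, 5.05 and 5.73 across the cultured arrays, against 6.49, 5.93 and 6.50 across the fresh arrays. Its fold change over all 6 arrays was -0.59 ± 0.33 (adjusted p = 0.411), against -0.92 (adjusted p = 0.0766) when cultured replicate 1 was left out. After quantile normalization Polr1c was at -0.17, not past the test.

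Of the box C/D genes, 1 of 4 fell and all 4 had fold changes below 0 as deposited, although that of Fbl turned positive on other scales. Their median was -0.91 as deposited, -0.51 after quantile normalization and -0.66 with cyclic loess. Rrp9 is a protein of the U3 particle. Its values were 4.95, 4.76 and 4.72 across the cultured arrays, against 5.88, 5.50 and 5.68 across the fresh arrays. The groups did not overlap, and Rrp9 fell by 0.88 ± 0.15 on the log2 scale (SE, n = 3 each), a 1.84-fold difference with an adjusted p of 0.0172 from limma. Rrp9 lost its call without cultured replicate 3, fresh replicate 1 or fresh replicate 3, where its adjusted p was 0.0916, 0.0563 and 0.0769, after quantile normalization at 0.0547 and with a trended and robust prior at 0.0575.

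Nop58, 1 of the paired scaffold proteins of the particle, had the lowest fold change of all members. It was at 7.85, 5.80 and 6.08 across the cultured arrays, against 8.55, 8.92 and 8.51 across the fresh arrays. All cultured arrays were below all fresh arrays, but cultured replicate 1 was nearer to them than the others. The log2 fold change was -2.09 ± 0.49 with an interval of -3.21 to -0.96 and an adjusted p of 0.0597. Nop58 passed without cultured replicate 1, at -2.72 with an adjusted p of 6.04e-05, and after quantile normalization at -1.32 with 0.0231. With any 1 of the other arrays left out, Nop58 did not pass, at an adjusted p of 0.111 to 0.217. Its partner Nop56 was at 7.16, 5.21 and 6.11 across the cultured arrays, against 6.88, 7.34 and 7.10 across the fresh arrays. Here cultured replicate 1 lay among the fresh arrays, and the fold change was -0.95 ± 0.43 with an adjusted p of 0.313, or -1.45 with 0.0126 without that array. After quantile normalization Nop56 was at -0.37, not past the test.

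Fibrillarin, the methyltransferase of the particle (Fbl), did not follow this order of arrays. It was at 6.65, 7.61 and 6.70 across the cultured arrays, against 7.31, 7.52 and 7.36 across the fresh arrays. The highest cultured value was on replicate 2, above all fresh arrays, and the fold change of -0.41 ± 0.26 had an adjusted p of 0.475. Without cultured replicate 2 it passed, at -0.72 with an adjusted p of 0.0489, whereas its fold change was 0.48 after quantile normalization and 0.10 with cyclic loess, neither past the test. A further probe set of Fbl disagreed, at 7.51, 6.25 and 6.02 on the cultured arrays, against 7.72, 7.54 and 7.45 on the fresh arrays. That probe set had its highest cultured value on replicate 1, like most members, and a log2 fold change of -0.98 ± 0.39, so the pattern of Fbl over the cultured arrays is uncertain.

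Several members also carry small nucleolar RNA (snoRNA) genes within their span, the guide RNAs of these same particles. According to RefSeq gene positions, 6 of the 34 members held 18 snoRNA genes between them, namely Nop56, Nop58, Dkc1, Wdr43, Gnl3 and Ncl. The strand of the snoRNA genes was not compared with that of the host. The median log2 fold change of the 6 hosts was -0.87, against -0.14 for the other 28 members, and -0.03 for all 324 protein-coding genes tested with a snoRNA gene inside. After quantile normalization the medians were -0.24 for the hosts and 0.26 for the other members, with cyclic loess -0.41 and 0.11, and on cultured replicate 1 alone the hosts had a median of 0.10 over the fresh mean. The host gene itself passed in none of the 6. Averages over the 6 arrays were 7.83 for Ncl, 7.62 for Nop58, 7.58 for Gnl3, 6.63 for Nop56, 6.13 for Wdr43 and 4.65 for Dkc1. All genes had median log2 fold changes of -0.72 at a mean of 7 to 8, -0.43 at 6 to 7 and 0.07 at 4 to 5. The part of brightness in the difference between hosts and other members was not tested.

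Of the 18 snoRNA genes 4 had a named probe set. Snord57, inside Nop56, was at 6.85, 5.65 and 6.33 across the cultured arrays, against 8.97, 9.62 and 9.51 across the fresh arrays. It fell by 3.10 ± 0.31 in log2 units, at an adjusted p of 0.00143 and non-overlapping groups, while Nop56 itself was at -0.95 with overlapping groups. Within Ncl, Snora75 was at 3.33, 3.05 and 3.13 across the cultured arrays, against 5.10, 5.82 and 6.12 across the fresh arrays. Its cultured mean of 3.17 was within the background of 3.23, so its cultured level is not known, and its fresh mean was 2.45 above that background. The log2 fold change of Snora75 was -2.51 ± 0.26 (adjusted p = 0.00151), and -2.80 to -2.29 with 1 array left out. Snord82, also within Ncl, was at 5.75, 3.79 and 5.01 across the cultured arrays, against 6.54, 8.64 and 7.95 across the fresh arrays. It fell by 2.86 with an adjusted p of 0.0445, while the host Ncl was at -0.79 with 0.416. Of these, Snord57 and Snora75 passed under each of the 15 other settings, including every left-out array. Snord82 lost its call without cultured replicate 2, cultured replicate 3, fresh replicate 2 or fresh replicate 3, where its adjusted p reached 0.165. Snord53, inside Wdr43, was at 3.88, 3.41 and 3.39 across the cultured arrays, against 2.90, 3.53 and 3.85 across the fresh arrays, near background in both groups, with a fold change of 0.14. The difference between a snoRNA's fold change and its host's was not tested.

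**Figure D3:**
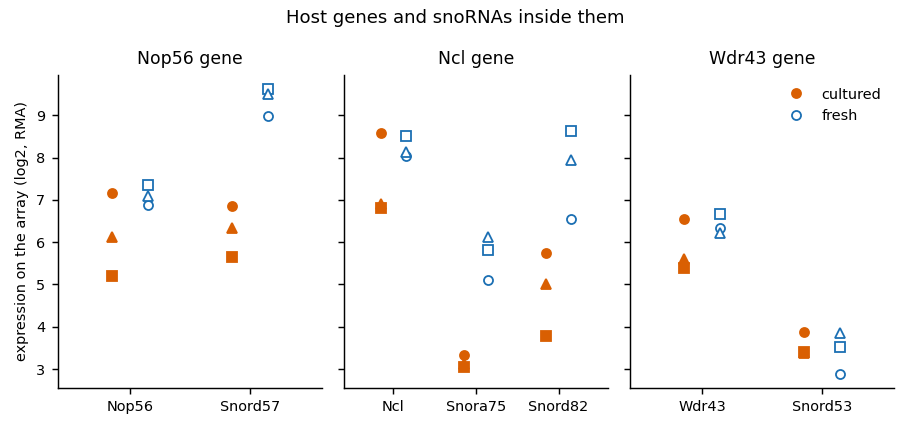
Expression (log2, vertical axis) of 3 host members and of the snoRNAs measured inside them, with 1 symbol per array, filled for cultured and open for fresh. Levels of different probe sets are not comparable with each other; cultured replicate 1 (circle) lies among or above the fresh arrays for Nop56, Ncl and Wdr43 and below all of them for Snord57, Snora75 and Snord82.

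None of the 4 box H/ACA genes passed, and the direction of their median turned with the scale, from -0.14 as deposited to 0.43 after quantile normalization and 0.26 with cyclic loess. Dkc1, the pseudouridine synthase, was at 6.33, 3.80 and 4.50 across the cultured arrays, against 4.22, 5.03 and 4.02 across the fresh arrays. Cultured replicate 1 lay more than 1 log2 unit above all fresh arrays while replicate 2 was below them all, and the interval of the fold change, -0.94 to 1.84, was the widest of all members. Nop10, the smallest core protein of the particle, was at 8.97, 7.26 and 7.48 across the cultured arrays, against 9.08, 8.78 and 9.00 across the fresh arrays. Its fold change over all 6 arrays was -1.05 ± 0.41 (adjusted p = 0.235), against -1.58 (adjusted p = 0.000748) when cultured replicate 1 was left out. After quantile normalization the fold change of Nop10 was -0.11.

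The remaining H/ACA core proteins are Nhp2 and Gar1, and both had cultured replicate 1 above and the other cultured arrays below every fresh array. Nhp2 was at 7.37, 5.63 and 6.30 across the cultured arrays, against 6.70, 6.45 and 6.70 across the fresh arrays. Gar1 was at 7.16, 6.42 and 6.69 across the cultured arrays, against 6.78, 7.06 and 6.74 across the fresh arrays. Their fold changes were -0.18 ± 0.39 and -0.10 ± 0.21. Both turned positive on other scales. Nhp2 was at 0.41 after quantile normalization and 0.20 with cyclic loess, not past the test, and Gar1 was called higher after quantile normalization at 0.65 with an adjusted p of 0.0421.

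No member of the small subunit processome passed. Of 6 members, 4 had fold changes below 0, and the class median was -0.26, and -0.17 after quantile normalization. Utp4, which joins the nascent precursor early, was at 5.16, 3.88 and 4.21 across the cultured arrays, against 5.35, 5.31 and 4.82 across the fresh arrays. Its fold change was -0.75 ± 0.32 with an adjusted p of 0.288, and -1.12 with 0.0146 without cultured replicate 1. Wdr43, of the same early subcomplex, was at 6.56, 5.38 and 5.61 across the cultured arrays, against 6.35, 6.67 and 6.22 across the fresh arrays. Its fold change over all 6 arrays was -0.56 ± 0.30 (adjusted p = 0.393), against -0.92 (adjusted p = 0.0208) when cultured replicate 1 was left out. After quantile normalization Utp4 was at -0.69 and Wdr43 at -0.12, neither past the test. In both genes cultured replicate 1 overlapped the fresh arrays and replicates 2 and 3 were below them.

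Utp20, a large scaffold protein, went the other way. It was at 3.92, 3.40 and 3.50 across the cultured arrays, against 2.83, 3.08 and 3.37 across the fresh arrays. The cultured arrays were all above the fresh arrays, at a log2 fold change of 0.51 ± 0.20 with an adjusted p of 0.235. The fresh mean of 3.09 was within the background of 3.16, so its fresh level is not known. The cultured mean was 0.45 above that background, and the interval of the fold change, 0.05 to 0.98, reached nearly to 0. The others, Heatr1, Noc4l and Wdr75, had overlapping groups and fold changes of 0.15, -0.19 and -0.34.

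Promoter sequences are shown here because Myc, whose own transcript fell, binds the E-box CACGTG. RefSeq promoter windows (GRCm38.p6, 250 bases before to 50 after the start) were matched by symbol for 29 members. CACGTG, which reads the same on both strands, was in the windows of 6 of them (20.7%): Mybbp1a, Nop2, Pes1, Utp20, Utp4 and Wdr43. It was in the windows of 9.50% of the 15614 tested genes with one and of 18.1% of 116 other pathway genes. Counted by window, it was in 16.7% of the 36 windows of the members and 7.15% of all 32851 windows. With the 200 bases before the start alone, 1 member held it (3.45%), against 7.16% of tested genes, so the members' share was above that of tested genes in the whole window and below it in the shorter one. The ETS-type motif CCGGAAG, searched on both strands, was in 8 of 29 members (27.6%) and 13.6% of tested genes, and TATAAA in 2 (6.90%) and 13.6%. The 6 members with CACGTG had a median log2 fold change of 0.30 and the 23 without it -0.34. Without cultured replicate 1 these medians were -0.10 and -0.62. Averages over the 6 arrays were 4.74 for Mybbp1a, 4.55 for Nop2, 4.47 for Pes1, 3.35 for Utp20, 4.79 for Utp4 and 6.13 for Wdr43. The 10 members with a mean of 4 to 5, whatever their window, had a median of 0.30. The part of brightness in the difference between members with and without CACGTG was not tested. The windows below are those of the 3 members with CACGTG that had the largest absolute fold change, and of Nop58, which had the largest without it. Capitals mark CACGTG and, in Utp4, CCGGAAG read on the other strand; no searched motif was in the window of Nop58.
Utp4 (chr8:106893390-106893689, plus strand): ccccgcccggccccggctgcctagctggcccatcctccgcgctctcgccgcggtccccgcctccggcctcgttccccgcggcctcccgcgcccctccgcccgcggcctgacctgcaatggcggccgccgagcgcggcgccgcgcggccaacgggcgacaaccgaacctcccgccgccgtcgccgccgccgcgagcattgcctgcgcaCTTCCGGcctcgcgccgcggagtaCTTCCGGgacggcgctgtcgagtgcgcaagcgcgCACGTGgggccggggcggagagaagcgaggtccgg
Wdr43 (chr17:71615965-71616264, plus strand): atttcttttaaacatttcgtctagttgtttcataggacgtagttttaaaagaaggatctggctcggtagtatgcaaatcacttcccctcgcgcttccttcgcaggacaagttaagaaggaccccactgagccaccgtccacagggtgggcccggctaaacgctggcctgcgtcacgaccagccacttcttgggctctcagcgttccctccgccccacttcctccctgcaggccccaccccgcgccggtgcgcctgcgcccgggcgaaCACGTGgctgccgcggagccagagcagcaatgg
Utp20 (chr10:88826765-88827064, minus strand): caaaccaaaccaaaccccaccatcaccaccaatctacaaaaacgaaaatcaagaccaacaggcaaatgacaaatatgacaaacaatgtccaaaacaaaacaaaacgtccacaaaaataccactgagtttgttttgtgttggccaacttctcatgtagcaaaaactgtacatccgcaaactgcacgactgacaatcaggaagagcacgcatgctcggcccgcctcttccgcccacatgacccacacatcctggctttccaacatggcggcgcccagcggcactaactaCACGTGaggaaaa
Nop58 (chr1:59684756-59685055, plus strand): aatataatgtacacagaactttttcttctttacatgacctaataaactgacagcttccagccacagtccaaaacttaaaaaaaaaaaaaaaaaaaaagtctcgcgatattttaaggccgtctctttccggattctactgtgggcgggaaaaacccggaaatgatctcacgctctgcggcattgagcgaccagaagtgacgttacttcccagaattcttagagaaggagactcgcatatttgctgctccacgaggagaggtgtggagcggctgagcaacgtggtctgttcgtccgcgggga

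In these windows the start is after base 250, and CACGTG began at base 266 in Utp4, 268 in Wdr43 and 288 in Utp20, downstream of the start in each. The CCGGAAG matches of Utp4 began at bases 208 and 232. A match is a description of the letters and says nothing of binding in these cells. The log2 fold changes beside these windows were -0.75 for Utp4, -0.56 for Wdr43, 0.51 for Utp20 and -2.09 for Nop58.

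The late 40S factors act on the particle as it leaves the nucleus, and none of the 3 passed. Nob1, the endonuclease that makes the final cut at the end of the small subunit RNA, was at 5.49, 5.05 and 5.65 across the cultured arrays, against 6.41, 5.59 and 5.92 across the fresh arrays. Its fold change was -0.58 ± 0.25 with an adjusted p of 0.275. Bysl, an early-binding factor that stays until the late particle, was at 4.02, 3.63 and 3.99 across the cultured arrays, against 3.32, 3.66 and 3.51 across the fresh arrays, and its fold change of 0.39 ± 0.17 had an adjusted p of 0.280. Rrp12, a factor of export, was at 4.20, 4.23 and 4.25 across the cultured arrays, against 3.84, 4.11 and 3.98 across the fresh arrays. The 3 cultured values of Rrp12 lay closer together than those of any other member, with an SD of 0.025, and cultured replicate 1 was not the highest.

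Among the 8 pre-60S members none passed, and they divided into 4 with fold changes below 0 and 4 above. Gnl3, the nucleostemin GTPase first known from stem cells, was at 7.91, 5.72 and 6.16 across the cultured arrays, against 8.57, 8.60 and 8.53 across the fresh arrays. Its cultured arrays were all below its fresh arrays, which differed from each other by less than 0.1. The log2 fold change was -1.97 ± 0.50 with an interval of -3.12 to -0.82 and an adjusted p of 0.0762. It passed without cultured replicate 1, at -2.63 with an adjusted p of 5.33e-05, and after quantile normalization, cyclic loess and median centring at -1.22, -1.38 and -2.04. With any 1 of the other arrays left out, Gnl3 did not pass, at an adjusted p of 0.131 to 0.257.

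Rrs1, which helps to bring the 5S RNA into the large subunit in yeast, was at 6.99, 5.73 and 5.93 across the cultured arrays, against 6.94, 7.24 and 7.35 across the fresh arrays. Nip7, another pre-60S factor, was at 6.89, 5.61 and 5.27 across the cultured arrays, against 7.24, 7.10 and 6.31 across the fresh arrays. Nop16 was at 5.91, 5.23 and 5.10 across the cultured arrays, against 6.43, 6.24 and 5.79 across the fresh arrays. In all 3 genes cultured replicate 1 overlapped the fresh arrays and the other cultured arrays were below them. Their fold changes were -0.96 ± 0.32, -0.96 ± 0.43 and -0.74 ± 0.26, with adjusted p of 0.164, 0.301 and 0.182. Leaving out cultured replicate 1 put all 3 past the threshold, with fold changes of -1.35, -1.44 and -0.99 and adjusted p-values of 0.00261, 0.0152 and 0.0253. After quantile normalization their fold changes were -0.32, -0.43 and -0.38, none past the test.

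The PeBoW complex, made of Pes1, Bop1 and Wdr12 and needed for processing of the large subunit RNA, had positive fold changes, none of which passed. The log2 fold changes of these 3 members were 0.33 ± 0.38, 0.33 ± 0.15 and 0.58 ± 0.32, and those of the methyltransferase Nop2 were 0.38 ± 0.21, with adjusted p between 0.300 and 0.720. Pes1 was at 5.63, 4.10 and 4.18 across the cultured arrays, against 4.26, 4.45 and 4.20 across the fresh arrays. Wdr12 was at 5.41, 4.04 and 4.38 across the cultured arrays, against 4.01, 4.06 and 4.03 across the fresh arrays. For both, cultured replicate 1 was more than 1 log2 unit above the fresh arrays and the other cultured arrays were within 0.4 of them, and without that array the fold changes were -0.16 and 0.18. A further probe set of Wdr12 had a fold change of -0.08 ± 0.48. Bop1, at 4.80, 4.52 and 4.85 across the cultured arrays, against 4.34, 4.52 and 4.31 across the fresh arrays, differed least between the cultured arrays.

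The nucleolar proteins with several roles include nucleolin and nucleophosmin, and none of the 5 passed. Ncl, which binds the precursor and chromatin of the ribosomal genes, was at 8.59, 6.81 and 6.89 across the cultured arrays, against 8.03, 8.51 and 8.13 across the fresh arrays. Its fold change was -0.79 ± 0.45 with an adjusted p of 0.416, and -1.37 with 0.00267 without cultured replicate 1. The direction of Ncl turned with the scale, to 0.11 after quantile normalization, and it was -0.14 with cyclic loess. Npm1, a chaperone of ribosomal proteins and histones, was at 9.99, 7.84 and 7.91 across the cultured arrays, against 8.45, 8.61 and 8.65 across the fresh arrays. Cultured replicate 1 was above and the others below every fresh array by at least 0.5, and the fold change of 0.01 has an interval of -1.21 to 1.22.

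The direction of Npm1 depended on the array left out and on the scale. Without cultured replicate 1 it was called lower at -0.70 with an adjusted p of 0.0344, and after quantile normalization it was called higher at 0.91 with 0.0262. Npm1 has processed copies in the mouse genome that could share its probes, so its level is uncertain. The helicase Ddx21 was at 5.75, 5.04 and 4.97 across the cultured arrays, against 5.74, 5.87 and 5.54 across the fresh arrays. Its fold change over all 6 arrays was -0.46 ± 0.23 (adjusted p = 0.345), against -0.71 (adjusted p = 0.0419) when cultured replicate 1 was left out. After quantile normalization Ddx21 was at -0.20, not past the test. Nolc1, a chaperone of both kinds of snoRNA particle, and Mybbp1a were at -0.17 ± 0.27 and 0.27 ± 0.27, with adjusted p of 0.804 and 0.674.

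**Figure D4:**
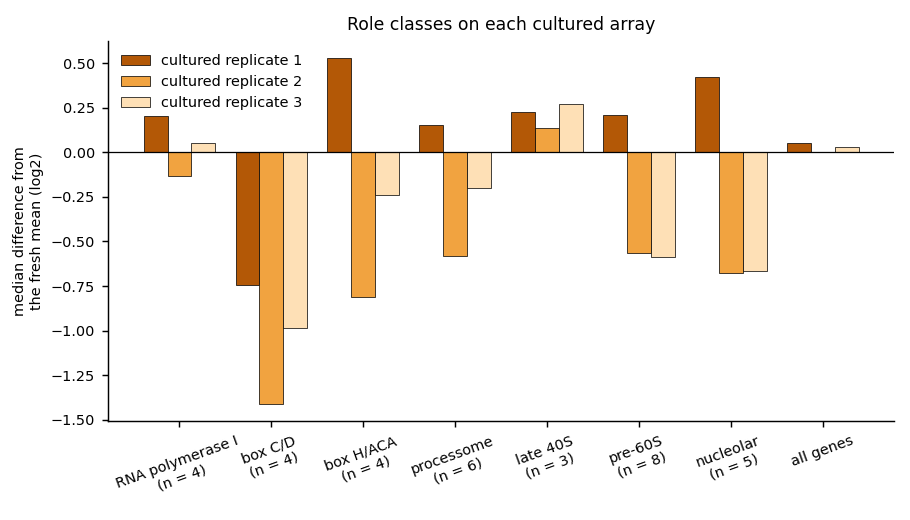
Median difference from the fresh mean (log2, vertical axis) of each role class on each cultured array, with all genes tested at the right. On the deposited scale the box C/D median is below 0 on all 3 cultured arrays and the late 40S median above 0 on all 3. The medians of box H/ACA, processome, pre-60S and nucleolar members are above 0 on cultured replicate 1 and below 0 on the others.

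Set side by side on the cultured arrays, the classes named by role differed in how they split. Relative to the fresh mean, box C/D members had medians of -0.74, -1.41 and -0.99 for cultured replicates 1, 2 and 3. In the same order, box H/ACA members had 0.53, -0.81 and -0.24, processome members 0.15, -0.58 and -0.20, and RNA polymerase I members 0.20, -0.13 and 0.05. Late 40S members had 0.22, 0.14 and 0.27, pre-60S members 0.21, -0.56 and -0.58, and nucleolar members 0.42, -0.68 and -0.67. Of these 7 classes, box C/D alone had a median below the fresh mean on every cultured array, on the deposited scale. On cultured replicate 1 its members were at -0.75 for Fbl, 0.05 for Nop56, -0.81 for Nop58 and -0.74 for Rrp9. The further probe set of Fbl was at 7.51 on that array, among its fresh values of 7.72, 7.54 and 7.45, so the box C/D median there depends on the probe set of Fbl. No test was run over a class of 3 to 8 genes, and the classes differ in brightness.

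**Figure D5:**
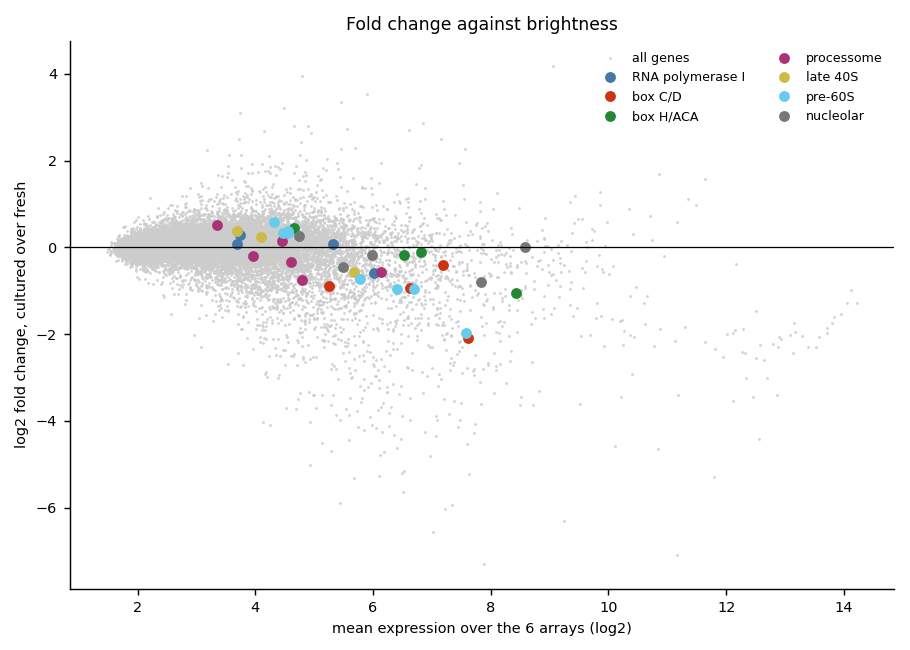
Log2 fold change, cultured over fresh (vertical axis), against the mean over the 6 arrays (log2, horizontal axis) for all 19938 genes in grey and for the members by role. The 4 members with a mean of 7 to 8 all lie below 0, while the 10 with a mean of 4 to 5 have a median of 0.30, with Utp4 at -0.75.

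Median fold changes differed with brightness, for the members and for all genes. The 10 members with a mean of 4 to 5 had a median log2 fold change of 0.30, against 0.07 for the 3405 genes of that brightness. The 7 members with a mean of 6 to 7 had a median of -0.59, against -0.43 for 498 genes, and the 4 members with a mean of 7 to 8 had a median of -1.38, against -0.72 for 244 genes. At a mean of 8 to 10 the medians were less negative than at 7 to 8, at -0.52 for 2 members and -0.56 for 161 genes. No member had a mean over 10, and the genes above 10 were not placed in a class, so these medians do not describe the brightest genes. On cultured replicate 1 the members with a mean of 4 to 5 stood a median of 0.69 over the fresh mean, against 0.17 for all genes of that brightness. How far the scale of the arrays accounts for the members' differences was not tested.

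Of 140 further ribosome biogenesis genes measured, 4 fell and none rose, beside 3.37% of all genes lower and 0.953% higher. Their median log2 fold change was -0.09. At an unadjusted p below 0.05 there were 26, a share close to the 17.6% of all genes in either direction. By direction these were 19 lower and 7 higher, beside 9.06% of all genes lower and 8.58% higher. Nop53, which directs the exosome to the large subunit precursor, was at 5.61, 5.51 and 5.29 across the cultured arrays, against 7.04, 7.44 and 7.39 across the fresh arrays. It fell by 1.82 in log2 units, at an adjusted p of 0.000824, and its groups did not overlap. The processome gene Ngdn was at 4.07, 4.13 and 3.87 across the cultured arrays, against 5.00, 5.05 and 5.25 across the fresh arrays. It fell by 1.08, with an adjusted p of 0.00545. Nop53 and Ngdn passed under all 15 other settings.

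Sbds, needed for the last step of large subunit maturation, fell by 1.68 with an adjusted p of 0.0172, but lost its call without cultured replicate 3 or any 1 fresh array, at up to 0.0867. The kinase gene Riok3, of late 40S maturation, fell by 0.95 with 0.0412, and lost its call without cultured replicate 2, cultured replicate 3, fresh replicate 2 or fresh replicate 3, at up to 0.149. By list, the calls were 1 of 38 processome, 1 of 12 late 40S and 2 of 51 pre-60S genes, and none of 8 RNA polymerase I, 10 snoRNP assembly and 21 exosome and RNase MRP genes. At an unadjusted p below 0.05 these 3 lists without a call had 2, 3 and 0 genes. Over all genes 4.32% were called and 17.6% had an unadjusted p below 0.05, in either direction. In these 140 genes, too, cultured replicate 1 was the highest cultured array, for 119 of them (85.0%), against 41.9% of all genes. The share over all genes again includes genes within background. Without that array 27 were lower and none higher, while 6.41% of all genes were called lower and 1.20% higher.

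Myc was at 6.50, 5.38 and 5.21 across the cultured arrays, against 9.68, 9.86 and 9.75 across the fresh arrays. It fell by 4.06 ± 0.32 in log2 units, at an adjusted p of 0.000366, and it passed under all 15 other settings. The lowest fold change of any member, -2.09, was smaller in size than that of Myc. The 61 cytosolic ribosomal protein genes measured had medians of 11.05, 8.67 and 9.23 on cultured replicates 1, 2 and 3, against 11.38, 11.39 and 11.34 on the fresh arrays. The same cultured array was thus the highest for them, for 60 of 61.

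The labelled cell type was checked on marker lists. All 10 satellite cell markers were above background in both groups, and 6 of them fell, among them Pax7 by 1.33 and Cxcr4 by 2.47. Of the genes behind the negative gates, Ptprc, Itgam and Pecam1 were within background in both groups. The Sca1 gene Ly6a was on the lists but not measured. The 8 haematopoietic markers had summed levels of 21.8 to 22.4 for cultured and 22.1 to 23.6 for fresh arrays. Among them, Cd68, Cd14 and Cd3e were above background on the fresh arrays, and Cd3e also on the cultured arrays. Cd68 had non-overlapping groups and a log2 fold change of -0.60, with an adjusted p of 0.0995 from limma. The fibro-adipogenic list had summed levels of 26.2 to 26.7 for cultured and 35.8 to 39.4 for fresh arrays, with Dpt, Dcn and Col3a1 lower and 5 of 8 not past the test. Proliferation markers summed to 31.2, 24.3 and 26.6 on cultured replicates 1, 2 and 3, against 22.6 to 23.4 on the fresh arrays, and cultured replicate 1 was again the highest for all 5. Mki67 rose by 1.20 and Cdk1 by 2.12, while Top2a at 1.73 (adjusted p = 0.0680) and Mcm2 at 0.51 (adjusted p = 0.320) did not pass. Pcna had a fold change below 0, at -1.10 with an adjusted p of 0.220. Of the other lists, 1 of 7 endothelial markers fell (Tek), from a fresh mean of 3.34 to a cultured mean of 2.58, within background. Tie1 and Vwf were above background in both groups, with cultured means of 3.43 and 4.04 and fresh means of 3.42 and 3.995. Cdh5, Kdr and Emcn, like Pecam1, were within background in both groups. None of 6 mural, 5 tendon, 3 glial and 1 erythroid markers passed with limma. Of these, 2, 2, 0 and 0 had an unadjusted p below 0.05, beside 17.6% of all genes in either direction. The tendon list summed to 18.4 to 19.0 for cultured and 16.0 to 25.2 for fresh arrays, with fresh replicate 1 the highest. The part of other cells and of cycling cells in the members' values was not tested.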

How the data were processed

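RNA was biotin-labelled and hybridised to whole-transcript arrays, per the labels' protocols. The authors deposited 1 log2 expression value for each of 35556 probe sets and 6 arrays. RMA and the package oligo were used, per the submitters' processing notes, with versions and genome build not given in the sources used here. RMA compresses differences near background.

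Gene names came from the platform annotation, updated to RefSeq symbols (GRCm38.p6): 21789 probe sets had 1 gene, 1621 several and 12146 none listed. The brightest probe set per gene left 19938 genes. The test was limma 3.58.1 in R 4.3.3 (lmFit, eBayes, group as the only term), with Benjamini-Hochberg adjustment over all genes and a threshold of 0.05. Background was the 95th percentile of the group means of 1194 olfactory and vomeronasal receptor genes, 3.23 on cultured and 3.16 on fresh arrays. Python 3.11.15 with pandas 2.3.3 made counts and figures. The code was tested on simulated data. No scan dates were used, and the number of arrays limits the precision.

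The members and lists were chosen with earlier results of these data known. Per-array values were given for members past the test with all arrays or with 1 left out, the 2 largest fold changes of each role, and defining members. Gar1, Nhp2, Rrp12, Pes1, Wdr12, Utp20 and Bop1 were added after their values were seen, and so were the snoRNA genes. Of the other pathway genes listed, 140 were measured, beside 3 regulators, and the few not matched by symbol are not analysed here. Alternatives were other scales, filters, probe set rules, priors, array weights, a replicate block and leaving out each array.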

Additional observations from a re-analysis of the deposited data

How the results depend on the processing

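Labels number the arrays 1 to 3 in both groups, but same-numbered arrays did not deviate together (correlations of -0.09, -0.14 and 0.03 over all genes), so the numbers were not taken to pair the samples. With the replicate block 1 member was lower and none higher, as without it, and the calls over all genes were 561 lower and 101 higher against 671 and 190. Riok3 and Snord82 lost their calls with the block, at adjusted p of 0.102 and 0.108.

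The count of members lower was 1 as reported, 2 after quantile normalization or with dim genes left out, 3 with cyclic loess or median centring, 4 with array weights and 0 with a trended and robust prior. Leaving out each array gave 0 to 13. The count of members higher was 2 after quantile normalization and 1 with cyclic loess, and 0 otherwise. Of the 140 further genes, 8 were lower and 4 higher after quantile normalization, 9 and 2 with cyclic loess, and 15 and 1 with array weights, with 2 to 27 lower and 0 to 2 higher over left-out arrays. Calls over all genes were 897 lower and 698 higher after quantile normalization, 1017 and 498 with cyclic loess, and 1157 and 585 with array weights. With all 35556 probe sets tested they were 803 and 135, and Riok3 and Snord82 lost their calls, at adjusted p of 0.0870 and 0.0993. Over left-out arrays they were 380 to 1278 lower and 51 to 279 higher.

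The median log2 fold change of all members moved to 0.14 after quantile normalization, and ranged from -0.53 to -0.046 over left-out arrays. That of the box H/ACA members moved to 0.43 and that of the nucleolar members to 0.28 after quantile normalization, and the nucleolar median ranged from -0.70 to -0.021 over left-out arrays. Gar1 was reversed after quantile normalization, at 0.65, and Npm1 without cultured replicate 1, where the range over left-out arrays was -0.70 to 0.37. Signs of 5 members changed after quantile normalization, 5 with cyclic loess and 7 without cultured replicate 1. Members holding CACGTG numbered 1 of 29 in the 200 bases before the start, a share of 3.45% below the 7.16% of tested genes. Apart from the scale and the left-out arrays themselves, the cause of these changes was not tested. Signal near background limits the dimmest members, such as Utp20, Bysl, Polr1a and Polr1b.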
